A study of Mus musculus with 9 samples.

Results

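The genes that carry glucose, fructose, lactate and glycogen through the kidney were compared between Bmal1 knockout and wild-type mice. The set holds 36 genes for sugar transport, gluconeogenesis, glycolysis, lactate, fructose and glycogen, picked by symbol from 23282 listed rows. All 36 were listed, and 35 passed the filter on low values, which asked for at least 10 adjusted reads in at least 4 libraries. The 5 knockout (KO) libraries carry the label Bmal1 -/- and the 4 wild-type (WT) libraries the label wildtype. All are kidney RNA of strain C57BL/6, read as 3′ tags with the Lexogen QuantSeq kit from 500 ng of total RNA. The labels do not give age, sex, the hour of sampling or the part of Bmal1 that was deleted. Nothing in them ties a library to its own animal, and the p-values therefore measure how far these libraries spread, which may be technical.

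The kidney both burns and makes glucose. Cells of the proximal tubule take back filtered glucose through sodium-coupled carriers, release it to blood through facilitative carriers, and build new glucose from lactate and other precursors while using little glycolysis themselves. The later nephron segments depend more on glycolysis. Bmal1 is the transcription factor that, with a partner, drives the circadian clock from E-box sites, and enzymes of glucose and glycogen handling are among the classic clock outputs in liver.

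Of the 35 tested genes, 3 rose in KO kidney and 8 fell, with an adjusted p under 0.05 in limma's moderated test over all 13481 tested genes. The increases were in Pygl, Hk1 and Pkm. The decreases were in Ldhd, Gys2, Slc2a5, Gbe1, Sord, Gapdh, Fbp1 and Pgk1. That of Ldhd cannot be told apart from a decrease of Znrf1, a gene on the other strand that overlaps it. Over all tested genes 14.4% passed, 6.16% higher and 8.20% lower in KO, against 31.4%, 8.57% and 22.9% of the 35. At an unadjusted p under 0.05 there were 16 of the 35, against 27.5% of all tested genes. As deposited, the share of genes that fell was above that background and the share that rose was near it. This did not hold in every setting: 4 members were lower under each of 4 other scalings, and with the Rn45s share of each library as a covariate 6 were higher and 3 lower, among 1157 genes called. The median log2 fold change of the 35 was -0.00425, against 0.0002 over all tested genes, and 7 of the 11 called genes changed by less than 0.5 on the log2 scale. All KO libraries lay above all WT libraries in 3 members and below them in 5, where 5.86% and 8.46% of all tested genes did so. The 35 genes together took 0.627% to 0.868% of adjusted reads in KO and 0.668% to 0.796% in WT, and these ranges overlapped (two-sided exact permutation p = 0.889).

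**Figure D1:**
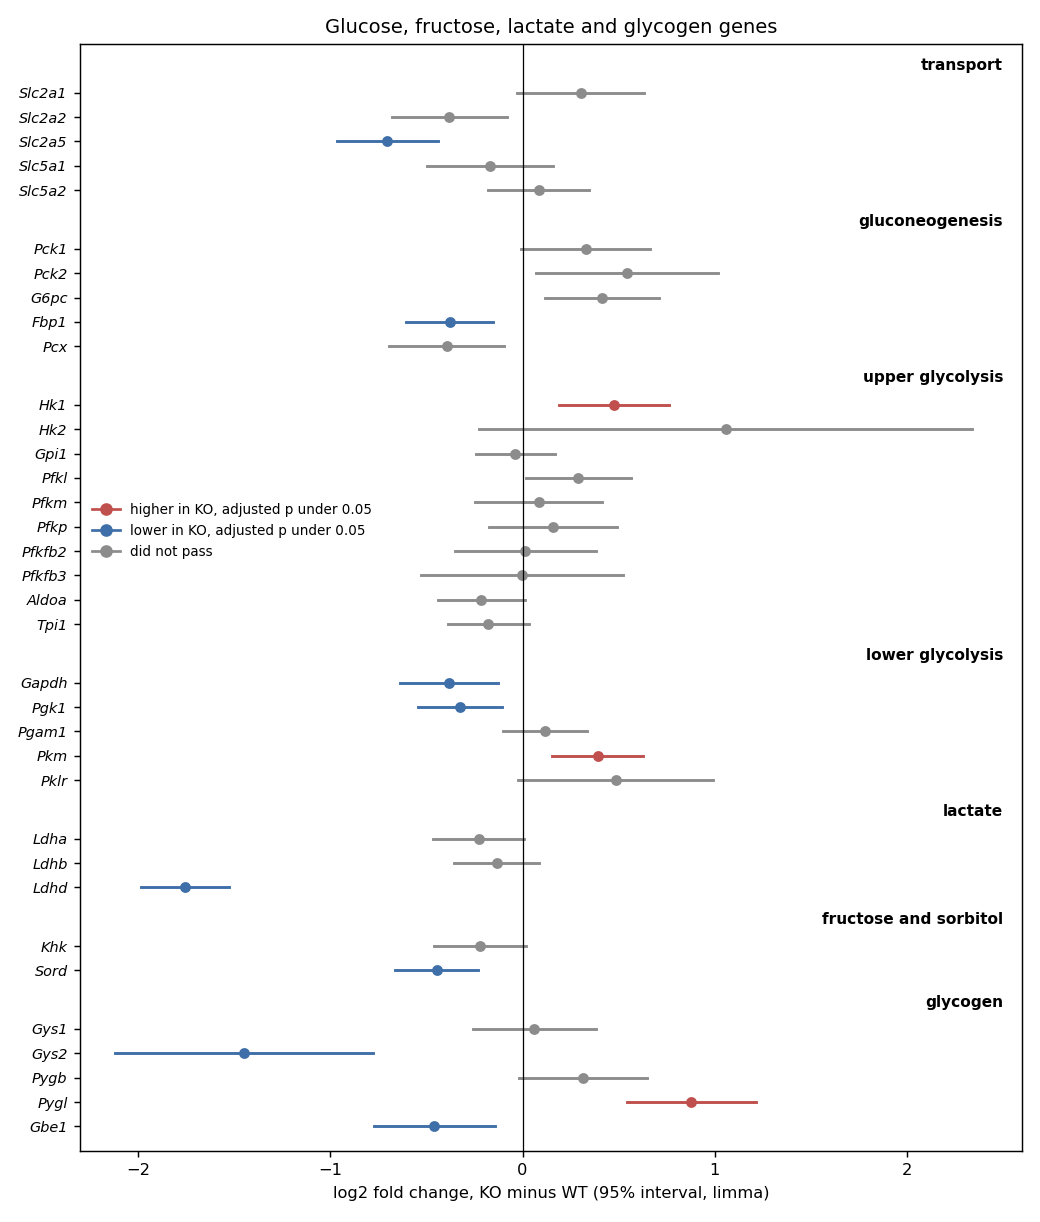
Log2 fold change (KO minus WT, x axis) of the 35 tested genes grouped by role, with 95% intervals from limma as bars. Red marks the 3 genes higher and blue the 8 genes lower in KO at an adjusted p under 0.05, and grey the 24 that did not pass; Ldhd at -1.75 and Gys2 at -1.45 lie farthest from 0.

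Values are given as deposited, on the log2 scale, as log2(x + 1). Here x is a number of reads after an adjustment by the authors, whose kind is not given in the sources used here. Each transcript gives about a single tag in this assay, so levels of different genes need no correction for length. The adjusted totals were 11765219 to 12936926 per KO library and 12407284 to 13486444 per WT library, and the raw depth is unknown. Rn45s, the precursor of ribosomal RNA, took 6.83% to 14.4% of adjusted reads in KO and 5.07% to 11.3% in WT. Among the 35 genes, KO 4, with the highest Rn45s share, had the lowest KO value in 13, and WT 2, with the highest WT share, had the lowest WT value in 19. KO 4 and WT 2 also had the highest globin shares of their genotype, at 3.36% and 1.455%. KO 3, next to KO 4 in Rn45s share at 11.6%, had the lowest KO value in 5 genes and the highest in 6. The cause of these ranks was not tested. Arntl, the gene symbol of Bmal1 (chromosome 7, 113207465 to 113314126, GRCm38), was lower in all KO libraries (log2 fold change -0.84, SE 0.21, limma adjusted p = 0.0113). A 3′ tag outside the deleted part would still be read, so this value checks nothing. Arntl passed in 18 of 20 alternatives. Without WT 3 the fold change was -0.72 (limma adjusted p = 0.0552), and with the Rn45s share as a covariate it was -0.69 (adjusted p = 0.0877).

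Promoter sequence is shown for 3 genes, because an E-box is the site through which Bmal1 acts and an ROR element the site through which the clock repressors it drives act. The letters searched on both strands were CACGTG for the E-box, AGGTCA for the core of the ROR element and TTANGTAA for the D-box, in the 250 bases before each RefSeq start (GRCm38.p6). RefSeq promoters were found for 34 of the 36 members, 49 in all. None was found for Slc5a2 or for the called gene Gys2, so Gys2 was not searched. The E-box letters stood in 8 of those 49 promoters, 16.3%, against 6.02% of 32851 promoters of the same length. The AGGTCA letters stood in 10 of 49, 20.4%, against 14.0% of all, and the D-box letters in 2 of 49, 4.08%, against 2.06%. The 10 promoters with AGGTCA belong to 9 members, since 2 overlapping Aldoa promoters hold the same site. Among the called genes that were searched, all but Gys2, Ldhd held the E-box, Pkm and Pygl held AGGTCA, and none held the D-box. The other promoters with the E-box belonged to Khk, Ldha, Pcx, Pfkfb2, Pfkfb3, Pfkm and Slc5a1, none of which passed the test. A match is a description of letters and not of a bound site.

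The Ldhd window, chr8:111630430-111630515 on the minus strand, is shown because Ldhd had the largest fold change. Of the called genes that were searched, Ldhd also held the E-box, in capitals at 139 bases before the start. Its tags cannot be told apart from those of the overlapping gene Znrf1, so the decrease is given for both genes together, as set out below.
Ldhd: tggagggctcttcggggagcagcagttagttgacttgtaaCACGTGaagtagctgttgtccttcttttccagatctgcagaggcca
The Ldha window, chr7:46845619-46845801 on the plus strand, lies inside the annotated Ldha gene but in none of its exons. It is shown for contrast, since Ldha has E-boxes at 145 and 48 bases before the start, in capitals, and did not pass the test.
Ldha: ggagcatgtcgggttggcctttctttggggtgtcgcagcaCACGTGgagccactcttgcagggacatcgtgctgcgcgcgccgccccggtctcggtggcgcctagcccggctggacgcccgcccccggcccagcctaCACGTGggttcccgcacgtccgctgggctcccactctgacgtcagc
The Pygl window, chr12:70227766-70227851 on the minus strand, lies inside the annotated Pygl gene but in none of its exons. It is shown because Pygl had the largest increase among the called genes. The letters AGGTCA read on the other strand are in capitals at 128 bases before the start, and the window overlaps an exon of F730035M05Rik on the plus strand.
Pygl: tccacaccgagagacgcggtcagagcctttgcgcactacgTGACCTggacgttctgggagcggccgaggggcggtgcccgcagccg

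Sugar transporters gave 1 call among 5 genes, a decrease of the fructose carrier. Slc2a5 (chromosome 4, 150119283 to 150144169) encodes GLUT5, which carries fructose across the apical membrane. Its values were 9.38, 8.87, 9.17, 8.79 and 9.09 in KO and 9.80, 9.71, 9.86 and 9.68 in WT, so that each KO library lay below each WT library. The log2 fold change was -0.70 (SE 0.12, limma adjusted p = 0.000794). It passed in all 20 alternatives, at -0.78 to -0.56.

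Slc2a2 encodes GLUT2, through which glucose leaves early proximal tubule cells, and Slc2a1 encodes GLUT1, the carrier of later segments and of most other cells. Slc2a2 was at 10.80, 10.36, 10.72, 10.17 and 10.44 in KO and 10.84, 10.51, 11.05 and 11.11 in WT, with overlapping groups (log2 fold change -0.38, 95% interval -0.68 to -0.08, limma adjusted p = 0.0838). It passed without KO 1 (adjusted p = 0.0396) or without WT 2 (adjusted p = 0.0164), and was at -0.19 with the Rn45s share as a covariate. Slc2a1 was at 8.93, 8.68, 8.65, 8.27 and 8.89 in KO and 8.34, 8.01, 8.63 and 8.55 in WT (0.30, interval -0.03 to 0.63, adjusted p = 0.223). It passed with the Rn45s covariate (0.55, adjusted p = 0.0291) and was at 0.18 without WT 2. The difference of both genes within a library, Slc2a1 minus Slc2a2, was -1.81 ± 0.20 in KO (SD, n = 5) and -2.50 ± 0.06 in WT (SD, n = 4). This gap was smaller in each KO library than in any WT library, by 0.68 (exact permutation p = 0.00794, the smallest these libraries can give, two-sided; adjusted over 12 pairs 0.0952).

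The sodium-coupled carriers did not pass. Slc5a2, for SGLT2, which takes up most filtered glucose in the early proximal tubule, was the most abundant of the 5 transporters at 12.09 ± 0.27 in KO (SD, n = 5) and 12.00 ± 0.09 in WT (SD, n = 4), with a log2 fold change of 0.08 (95% interval -0.18 to 0.35). Exons of BC017158 on the other strand cover the last 300 exon bases of Slc5a2. BC017158 exceeded Slc5a2 by 0.029 to 0.054 on the log2 scale in every library, so the value of Slc5a2 is uncertain; whether the same tags were listed under both symbols was not tested. Slc5a1, for SGLT1, which takes up the rest further down the tubule, had -0.17 (interval -0.50 to 0.16).

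Among the 5 genes of gluconeogenesis, 1 passed, as a decrease. Fbp1 (chromosome 13, 62864753 to 62888282) encodes fructose bisphosphatase, which reverses the committed step of glycolysis. Its values were 12.56, 12.18, 12.42, 12.30 and 12.38 in KO and 12.98, 12.71, 12.62 and 12.69 in WT. The groups did not overlap, with KO 1 close below WT 3, and the log2 fold change was -0.38 (SE 0.11, limma adjusted p = 0.0247). Fbp1 did not pass without KO 2 (adjusted p = 0.0696), KO 4 (0.0612) or WT 1 (0.0898), or under any of the 4 other scalings (0.0699 to 0.0929).

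G6pc, the catalytic subunit of the phosphatase that sets glucose free, and Pck1, the cytosolic PEP carboxykinase, are the abundant genes of this branch. G6pc was at 13.73, 13.21, 13.34, 13.09 and 13.27 in KO and 12.95, 12.52, 13.04 and 13.15 in WT. KO 4 lay below WT 4, and the fold change of 0.41 (SE 0.14, limma adjusted p = 0.0579) did not pass. It passed without WT 4 (0.49, adjusted p = 0.0481), after quantile normalization (0.56, adjusted p = 0.00773), with upper-quartile scaling (0.49, adjusted p = 0.0208) and after scaling that left Rn45s out of the total (0.52, adjusted p = 0.0179). With the Rn45s share as a covariate it was 0.64 (adjusted p = 0.00357).

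Pck1 was at 14.42, 13.90, 13.91, 13.74 and 14.56 in KO and 13.97, 13.69, 13.55 and 13.90 in WT (0.33, 95% interval -0.01 to 0.67, limma adjusted p = 0.195). It passed with the Rn45s covariate (0.55, adjusted p = 0.0318) and was at 0.21 without KO 5. Pck2, its mitochondrial counterpart, was far less abundant, at 7.35, 7.24, 6.20, 7.42 and 7.02 in KO and 6.60, 6.40, 6.57 and 6.44 in WT. KO 3 was the lowest of all 9 libraries and the other 4 KO libraries were above every WT library. The fold change of Pck2 was 0.54 (adjusted p = 0.124), and without KO 3 it was 0.75 (adjusted p = 0.0113). Depending on the coding transcript of Pck2, up to 29.9% of 50-base stretches of the last 300 bases also occur in other genes. Pcx, pyruvate carboxylase, which feeds the branch from pyruvate, had -0.39 (adjusted p = 0.0739). Without KO 5, the highest KO library, Pcx was at -0.50 (adjusted p = 0.0193), and it also passed without WT 1 (0.0416) or WT 2 (0.0399).

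**Figure D2:**
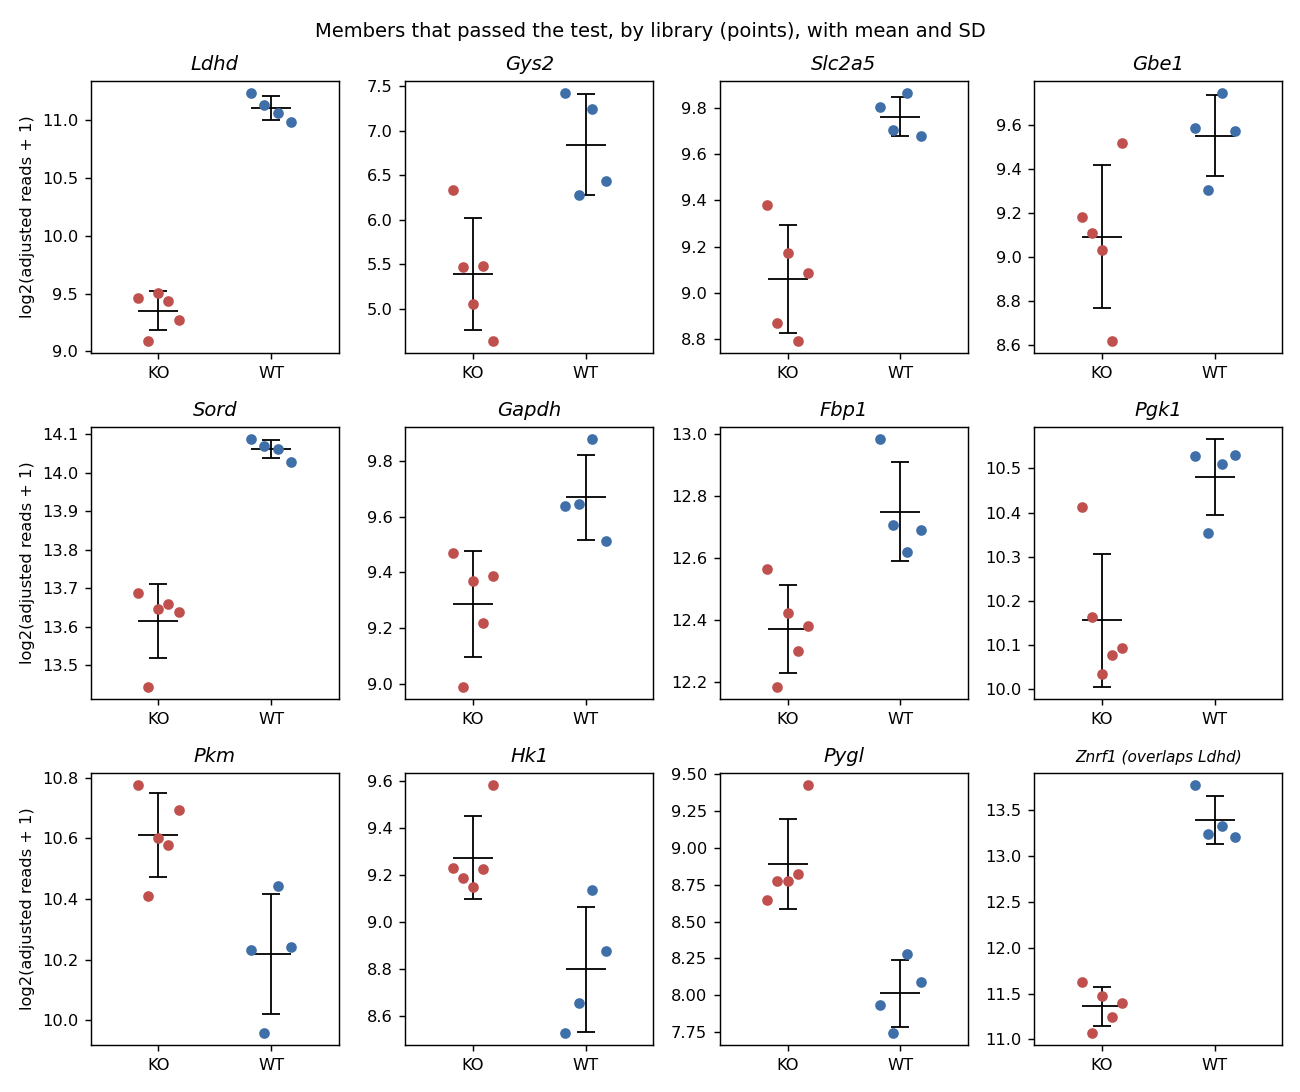
Deposited log2 values of the 11 called genes and of Znrf1, whose exons overlap Ldhd, in each library (points; KO in red, WT in blue), with the mean and SD of each genotype as horizontal line and bars. KO and WT do not overlap in Ldhd, Slc2a5, Sord, Gapdh, Fbp1, Hk1, Pygl and Znrf1, and overlap in Gys2, Gbe1, Pgk1 and Pkm; each panel has its own y axis.

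Upper glycolysis gave 1 call among 10 genes, an increase of Hk1 (chromosome 10, 62268855 to 62379908), the hexokinase found in most cells, which commits glucose to the cell by phosphorylating it. Its values were 9.23, 9.19, 9.15, 9.23 and 9.585 in KO and 8.53, 8.66, 9.14 and 8.88 in WT. Each KO library lay above each WT library, KO 3 and WT 3 by little, and the log2 fold change was 0.48 (SE 0.14, limma adjusted p = 0.0250). Hk1 did not pass without KO 5 (adjusted p = 0.0669), WT 1 (0.0889) or WT 2 (0.0516). Hk2, the insulin-responsive isoform, was near the floor except in KO 5. It was at 3.76, 4.70, 3.92, 4.33 and 6.99 in KO and 4.385, 4.53, 2.28 and 3.53 in WT (1.06, 95% interval -0.23 to 2.34, adjusted p = 0.281). Its fold change was 0.49 without KO 5 and 0.59 without WT 3.

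Phosphofructokinase, the main control point of glycolysis, is built from Pfkl, Pfkm and Pfkp subunits. Pfkl was at 8.85, 8.71, 8.83, 8.82 and 9.32 in KO and 8.63, 8.54, 8.67 and 8.63 in WT, higher in each KO library than in any WT library, with a fold change of 0.29 that did not pass (95% interval 0.02 to 0.56, limma adjusted p = 0.154). Pfkp was at 0.16 (interval -0.17 to 0.49) and Pfkm at 0.08 (interval -0.25 to 0.41). The last 300 exon bases of Pfkp are covered by exons of Pitrm1 on the other strand, so its value is uncertain. Pfkfb2 and Pfkfb3, which make the activator of phosphofructokinase, were at 0.02 and -0.00425, and Pfkfb3 spread from 6.03 to 7.52 in KO and from 6.60 to 6.95 in WT.

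The other genes of upper glycolysis did not pass either. Gpi1, which turns glucose phosphate into fructose phosphate, was at -0.04 (95% interval -0.24 to 0.17). Aldoa, an aldolase, had -0.21 (interval -0.44 to 0.01), and Tpi1, triosephosphate isomerase, -0.18 (interval -0.39 to 0.03). Depending on the coding transcript, up to 49% of 50-base stretches of the last 300 bases of Gpi1 also occur in other genes. For Aldoa this was up to 39.8% and for Tpi1 up to 36.3%, so part of these values is uncertain.

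Lower glycolysis gave 3 calls among 5 tested genes, with Gapdh and Pgk1 lower and Pkm higher. Pkm (chromosome 9, 59656368 to 59679375) encodes the pyruvate kinase of most tissues outside liver, which forms pyruvate. It was at 10.78, 10.41, 10.60, 10.58 and 10.69 in KO and 10.23, 9.96, 10.44 and 10.24 in WT. KO 2 lay just below WT 3 and the other KO libraries above all WT libraries (log2 fold change 0.39, SE 0.11, limma adjusted p = 0.0254). Pkm did not pass without KO 1, KO 3, KO 5, WT 2 or WT 4 (adjusted p 0.0569, 0.0515, 0.0556, 0.0655 and 0.0542 in that order). In its coding transcripts 0% to 46.6% of 50-base stretches of the last 300 bases also occur in other genes, so part of its value is uncertain. Pklr, the liver and red cell isoform, was low, at 5.96, 5.80, 6.22, 6.19 and 5.87 in KO and 5.82, 4.98, 5.56 and 5.74 in WT (0.48, adjusted p = 0.205). Its last 300 exon bases are covered by exons of Hcn3 on the other strand.

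Gapdh (chromosome 6, 125161715 to 125166467), the enzyme that oxidises triose phosphate and a common reference gene, was lower in KO. Its values were 9.47, 8.99, 9.37, 9.22 and 9.39 in KO and 9.64, 9.65, 9.88 and 9.51 in WT, without overlap (log2 fold change -0.38, SE 0.12, limma adjusted p = 0.0405). Its transcripts share much of their 3′ end with other genes: in the last 300 bases, 57.4% to 100% of 50-base stretches also occur in another annotated transcript, so the value is uncertain. Pgk1 (chromosome X, 106187100 to 106203699), which makes the first ATP of the pathway, was at 10.41, 10.16, 10.04, 10.08 and 10.09 in KO and 10.53, 10.35, 10.51 and 10.53 in WT. KO 1 lay above WT 2 and the groups were otherwise apart (-0.32, SE 0.10, adjusted p = 0.0430).

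Whether Gapdh and Pgk1 passed depended on single libraries and on scaling. With each library left out in turn, the log2 fold change was -0.43 to -0.31 for Gapdh and -0.39 to -0.29 for Pgk1. Gapdh did not pass without KO 2 (limma adjusted p = 0.108), KO 3 (0.0593), KO 4 (0.0859), WT 1 (0.0691) or WT 3 (0.133). Pgk1 passed without KO 1 or WT 2, and did not pass without any of the other 7 libraries, left out in turn (KO 2 0.0761, KO 3 0.105, KO 4 0.0952, KO 5 0.0834, WT 1 0.0940, WT 3 0.0916, WT 4 0.108). Under the 4 other scalings the adjusted p was 0.0945 to 0.141 for Gapdh and 0.107 to 0.161 for Pgk1. Pgam1, phosphoglycerate mutase, was at 0.12 (95% interval -0.10 to 0.34). Eno1, enolase, was listed at 0 in all 9 libraries and was not tested. In the last 300 bases of its coding transcripts, 64.5% to 100% of 50-base stretches also occur in other genes, among them Eno1b. Eno1b was listed on 2 rows, at 9.13 to 9.39 and 9.15 to 9.44 in KO and at 9.19 to 9.33 and 9.19 to 9.49 in WT. Whether tags of Eno1 were listed there was not tested.

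The lactate genes gave the largest change of the set. Ldhd (chromosome 8, 111623785 to 111630374) encodes the mitochondrial D-lactate dehydrogenase, which clears the D form of lactate. Its values were 9.46, 9.09, 9.51, 9.44 and 9.27 in KO and 11.23, 11.14, 11.07 and 10.99 in WT, with all KO libraries far below all WT libraries. The mean was 657 adjusted reads in KO and 2208 in WT, and the log2 fold change was -1.75 (SE 0.11, limma adjusted p = 3.91e-09). It passed in all 20 alternatives at -1.79 to -1.65.

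Ldhd cannot be read alone, because exons of Znrf1, a ubiquitin ligase gene on the other strand, cover the last 300 exon bases of Ldhd, and the last 300 exon bases of Znrf1 lie in exons of Ldhd. Znrf1 was at 11.62, 11.07, 11.47, 11.24 and 11.39 in KO and 13.78, 13.24, 13.33 and 13.21 in WT, lower in every KO library (-2.03, SE 0.13, limma adjusted p = 7.04e-09). Znrf1 exceeded Ldhd by 1.81 to 2.54 on the log2 scale in every library. Strand use in the counting is not given in the sources used here, so tags of Ldhd and Znrf1 cannot be told apart. The decrease is therefore given for both genes together.

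The L-lactate dehydrogenase subunits did not pass. Ldha, whose subunit favours lactate formation and whose 3′ ends share 0% to 48.6% of such stretches with other genes, was at 12.06, 11.87, 11.74, 11.64 and 11.74 in KO and 12.30, 11.89, 11.93 and 12.02 in WT (log2 fold change -0.23, 95% interval -0.46 to 0.01, limma adjusted p = 0.2003). Ldhb, whose subunit favours lactate use and which was the more abundant in all 9 libraries, had -0.13 (interval -0.36 to 0.09). Its 3′ ends share 4.38% to 25.1% of such stretches with other genes. Ldhb exceeded Ldha by 0.88 ± 0.11 in KO (SD, n = 5) and 0.78 ± 0.11 in WT (SD, n = 4), a difference of 0.09 that did not pass (exact permutation p = 0.238, two-sided).

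Among the fructose genes, Sord fell and Khk did not pass. Sord (chromosome 2, 122234749 to 122265340), sorbitol dehydrogenase, which makes fructose from sorbitol, is among the 3 most abundant genes of the set. It was at 13.69, 13.44, 13.65, 13.66 and 13.64 in KO and 14.09, 14.07, 14.06 and 14.03 in WT. The WT libraries lay within a narrow band above all KO libraries, and the log2 fold change was -0.45 (SE 0.10, limma adjusted p = 0.00595). It passed in all 20 alternatives at -0.465 to -0.31. Khk, ketohexokinase, which phosphorylates fructose, was at 12.39, 12.25, 12.43, 12.28 and 11.99 in KO and 12.58, 12.67, 12.42 and 12.28 in WT (-0.22, 95% interval -0.46 to 0.02, adjusted p = 0.218).

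The glycogen genes gave 3 calls among 5, with a synthase and the branching enzyme lower and a phosphorylase higher. Gys2 (chromosome 6, 142422613 to 142473109), the liver form of glycogen synthase known to be activated by the clock protein Clock in liver, was at 6.33, 5.48, 5.05, 5.48 and 4.64 in KO and 7.42, 6.28, 7.24 and 6.44 in WT. KO 1 lay above WT 2 and all other KO libraries below every WT library. The means were 44.6 adjusted reads in KO and 120.7 in WT, so Gys2 is a low transcript here, and the log2 fold change was -1.45 (SE 0.32, limma adjusted p = 0.00481). It passed with each library left out in turn and failed with the Rn45s share as a covariate (-1.06, adjusted p = 0.0637).

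Gys1, the glycogen synthase of muscle and most other tissues, was more abundant than Gys2 in all 9 libraries. It was at 8.18, 8.09, 8.35, 7.92 and 8.39 in KO and 7.79, 8.02, 8.41 and 8.28 in WT (log2 fold change 0.06, 95% interval -0.26 to 0.38). Gys2 minus Gys1 was -2.79 ± 0.75 in KO (SD, n = 5) and -1.28 ± 0.67 in WT (SD, n = 4), lower in each KO library, though KO 1 and WT 4 nearly met at -1.847 and -1.845 (exact permutation p = 0.0159, two-sided, adjusted over 12 pairs 0.0952).

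Pygl (chromosome 12, 70190811 to 70231488) encodes the liver form of glycogen phosphorylase, which releases glucose phosphate from glycogen. Its values were 8.65, 8.78, 8.78, 8.82 and 9.43 in KO and 7.93, 7.75, 8.28 and 8.09 in WT, with KO 5 the highest and no overlap. The log2 fold change was 0.88 (SE 0.16, limma adjusted p = 0.000997), and it passed in all 20 alternatives at 0.74 to 0.98. Pygb, the brain form, was at 8.31, 8.17, 8.45, 7.86 and 8.39 in KO and 7.81, 7.65, 8.30 and 7.93 in WT (0.31, 95% interval -0.02 to 0.65, adjusted p = 0.211). Pygl minus Pygb was 0.65 ± 0.34 in KO (SD, n = 5) and 0.09 ± 0.08 in WT (SD, n = 4), higher in each KO library (exact permutation p = 0.0238, two-sided, adjusted over 12 pairs 0.0952).

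Gbe1 (chromosome 16, 70313949 to 70569716), the branching enzyme that shapes glycogen, was at 9.18, 9.11, 9.03, 8.62 and 9.52 in KO and 9.585, 9.30, 9.74 and 9.57 in WT. KO 5 lay above WT 2 and the other KO libraries below all WT libraries (log2 fold change -0.46, SE 0.15, limma adjusted p = 0.0490). Gbe1 passed without KO 5 or WT 2. It did not pass without KO 1 (adjusted p = 0.0565), KO 2 (0.0858), KO 3 (0.0970), KO 4 (0.125), WT 1 (0.0996), WT 3 (0.137) or WT 4 (0.102), or under the 4 other scalings (0.0875 to 0.138).

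Of the 12 pairs of isozymes or carriers compared within libraries, none passed after adjustment and 4 had an unadjusted p under 0.05. Beside the 3 given above this was Slc2a5 minus Slc2a2, at -1.44 ± 0.08 in KO (SD, n = 5) and -1.11 ± 0.26 in WT (SD, n = 4) (exact permutation p = 0.0317, adjusted 0.0952). The other pairs not named above were Hk2 minus Hk1, Pfkm minus Pfkl, Pfkp minus Pfkl, Pfkfb3 minus Pfkfb2, Pklr minus Pkm, Slc5a1 minus Slc5a2 and Pck2 minus Pck1, with exact permutation p of 0.175 to 0.968. The smallest p the exact permutation test can give here, 0.00794, adjusts to 0.0952 over 12 pairs when a single pair reaches it. A single pair could therefore not pass, whatever its difference. A p that misses the threshold does not show that the members of a pair changed alike.

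**Figure D3:**
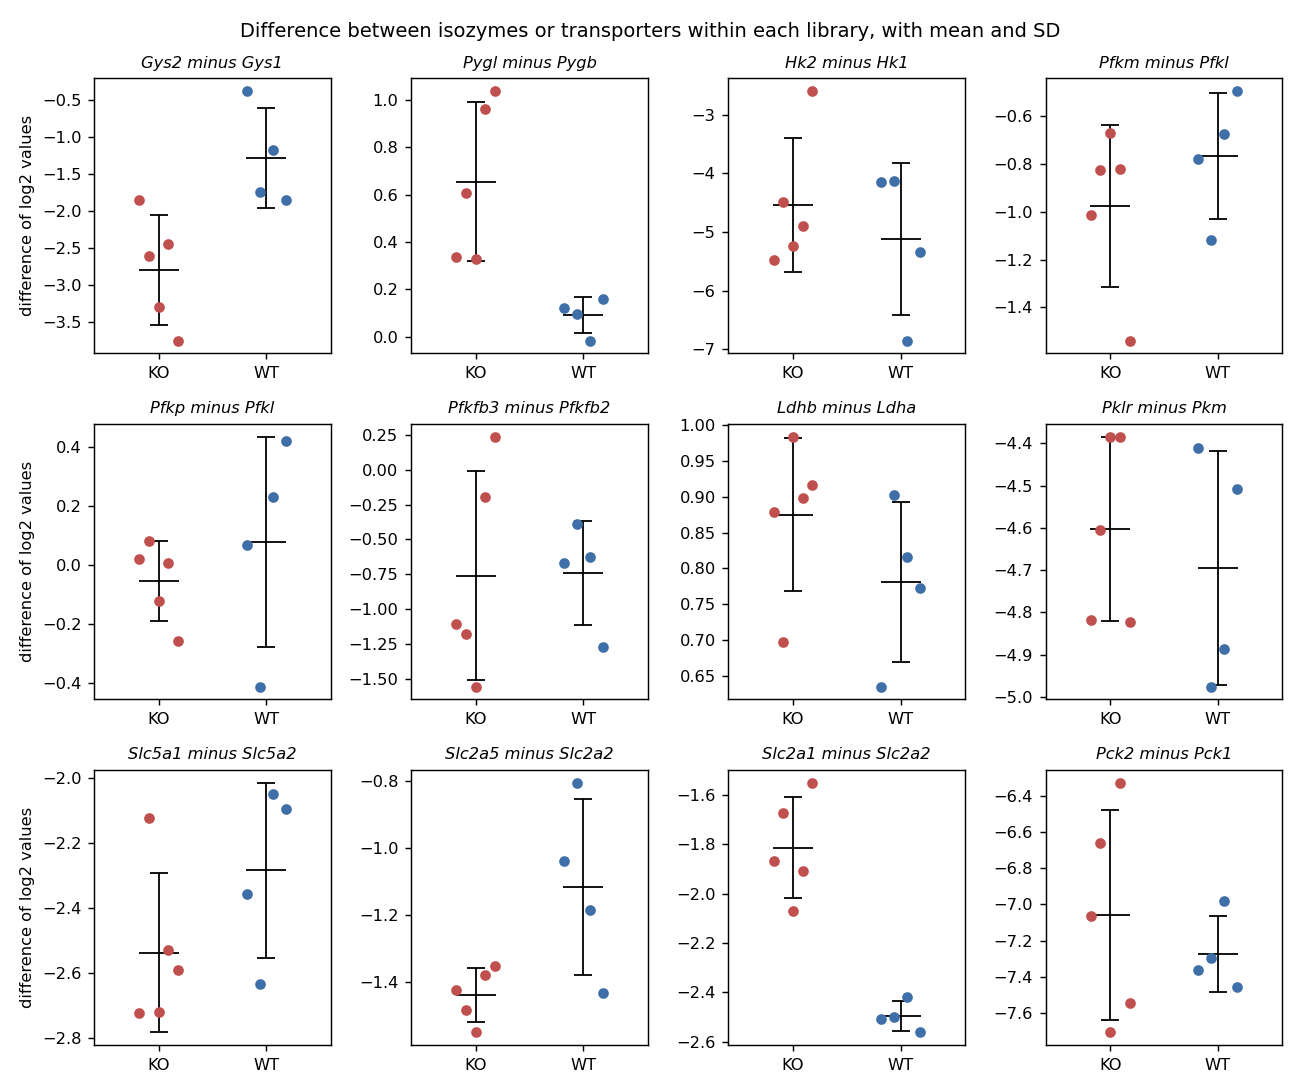
Difference of log2 values between the genes of a pair within each library (points; KO in red, WT in blue), with the mean and SD of each genotype. KO and WT are fully apart in Gys2 minus Gys1, Pygl minus Pygb and Slc2a1 minus Slc2a2 and overlap in the other pairs. Each panel has its own y axis.

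Other genes of the same pathways were taken from a list of 107, of which 101 were tested. Of these 7 rose and 15 fell, 6.93% and 14.9% of the tested genes, beside 6.16% and 8.20% over all genes, with a median log2 fold change of -0.03. By branch, 1 rose and 2 fell of 17 transporters, none rose and 2 fell of 8 genes of gluconeogenesis, 3 rose and 2 fell of 21 of glycolysis and pyruvate, and 1 rose and 3 fell of 9 of fructose and polyols. Of 19 glycogen genes none rose and 2 fell, of 8 pentose phosphate genes 1 rose and 2 fell, and of 19 regulators 1 rose and 2 fell.

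Of the called genes on this list, 14 changed by at least 0.5 on the log2 scale. In the list of glycolysis and pyruvate, where 16 of 21 genes did not pass, Pdk3, a kinase that shuts off pyruvate dehydrogenase, averaged 8.82 in KO and 9.65 in WT (log2 fold change -0.84, SE 0.14, limma adjusted p = 0.000361). Pdp1, a phosphatase that switches the same enzyme on, averaged 7.77 in KO and 7.04 in WT (0.73, SE 0.19, adjusted p = 0.0152). The related Pdk1, Pdk2, Pdk4 and Pdp2 and the enzyme subunits Pdha1, Pdhb, Dlat and Dld did not pass. Gpd2, the mitochondrial glycerophosphate dehydrogenase, fell by 0.64 (SE 0.14), and Pgam2, the muscle phosphoglycerate mutase, rose by 0.65 (SE 0.12). Pfkfb1, the liver isoform of the bifunctional enzyme, was at 3.18 to 4.24 in KO and at 0 to 3.50 in WT, near the floor (2.87, SE 0.81, adjusted p = 0.0230).

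Among 17 tested transporters 14 did not pass. Slc16a1, the monocarboxylate carrier MCT1, rose by 0.54 (SE 0.13, limma adjusted p = 0.00838), and Slc5a8, a sodium-coupled lactate carrier, fell by 0.55 (SE 0.13, adjusted p = 0.00780), while the related Slc16a7 and Slc5a12 did not pass. Slc37a4, which brings glucose phosphate to the phosphatase, fell by 0.53 (SE 0.15). Of the remaining branches, the glycerate kinase Glyctk fell by 0.67 (SE 0.14), the hexose phosphate dehydrogenase H6pd fell by 0.57 (SE 0.10) and the glycogen-binding protein Stbd1 fell by 0.815 (SE 0.24). Pmm1, a phosphomannomutase, rose by 0.54 (SE 0.16).

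Of the 19 regulators 16 did not pass, and the median of their log2 fold changes was -0.02. Mlxipl, which encodes the sugar-sensing transcription factor ChREBP, fell to 7.91 in KO, against 8.56 in WT (log2 fold change -0.65, SE 0.13, limma adjusted p = 0.00201). Txnip, a target of ChREBP that restrains glucose uptake, averaged 12.35 in KO and 11.67 in WT (0.68, SE 0.20, adjusted p = 0.0272), with KO 5 at 11.58 below 3 of the 4 WT libraries.

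Of 87 tested markers of cell types, 18 rose (20.7%) and 14 fell (16.1%), beside 6.16% and 8.20% over all tested genes. The lists differed among themselves, and their part in the results above was not tested. In these bulk samples fewer cells of a type and less RNA per cell cannot be told apart. The proximal tubule list had 7 decreases and no increase among 12 markers, with summed levels of 107187 to 124553 adjusted reads in KO and 148954 to 185436 in WT. Of 5 late proximal tubule markers 4 fell, with sums of 12511 to 21432 in KO and 28729 to 34864 in WT. None of 5 early proximal tubule markers passed, with sums of 16173 to 21680 in KO and 13901 to 20935 in WT. The median log2 fold changes of the 3 lists were -0.62, -1.18 and 0.04.

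In lists of other cell types, the counts of genes that rose were 1 of 6 for thick ascending limb, 2 of 4 for distal convoluted tubule, 1 of 6 for principal cells, 2 of 5 for intercalated cells and 1 of 5 for podocytes, with none lower. They were 3 of 6 for endothelium, 2 of 7 for fibroblasts and smooth muscle and all 6 tested for urothelium, with none lower. Of the urothelial markers, Krt15 passed the filter on low values through the KO libraries alone, at 5.23 to 5.63 in KO and 0.14 to 3.25 in WT. Summed levels were 26745 to 33621 adjusted reads in KO and 22082 to 40831 in WT for thick ascending limb, 7732 to 10339 in KO and 5709 to 10608 in WT for distal convoluted tubule, and 2871 to 6083 in KO and 2536 to 3324 in WT for principal cells. They were 2498 to 3794 in KO and 2501 to 2911 in WT for intercalated cells, 3100 to 3647 in KO and 2358 to 3068 in WT for podocytes, 3875 to 7168 in KO and 3049 to 4073 in WT for endothelium, and 3484 to 5468 in KO and 2752 to 3274 in WT for fibroblasts and smooth muscle. Urothelial sums were 962 to 1722 adjusted reads in KO and 485 to 598 in WT, and Krt5 was below the filter. Of 6 macrophage markers 1 fell, with sums of 1100 to 1463 in KO and 1362 to 1644 in WT. Of 5 hepatocyte markers 2 fell, with sums of 7614 to 12607 in KO and 16025 to 19926 in WT. The 2 were Cyp2e1, which averaged 11.96 in KO and 13.42 in WT, and Alb, at 4.80 and 6.82. These sums mostly reflect Cyp2e1 and Ttr, the latter at 12.20 in KO and 12.52 in WT, and hardly Alb. Blood markers gave no call among 6, with sums of 102928 to 436227 in KO and 73803 to 196847 in WT. Fat gave none among 2 tested markers, where Adipoq, Plin1 and Lep were below the filter and sums were 1613 to 9305 in KO and 1198 to 2579 in WT. Skeletal muscle gave none with 1 tested, at sums of 9 to 48 in KO and 17 to 85 in WT.

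**Figure D4:**
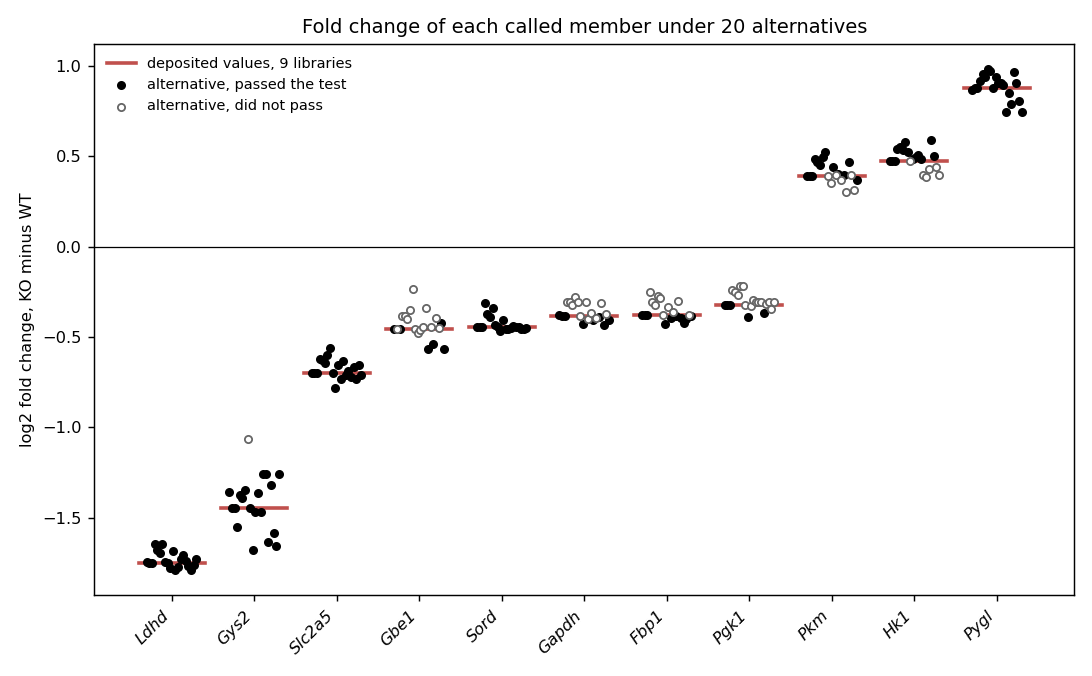
Log2 fold change (KO minus WT) of the 11 called genes as deposited (red lines) and under each of 20 alternatives (points), which change the added constant, the filter, the scaling, a covariate, the variance prior or the libraries kept. Filled points passed an adjusted p of 0.05 and open points did not; Ldhd, Slc2a5, Sord and Pygl passed in all 20 and Gys2 in 19, and no gene changed direction.

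The called genes thus differed in how far they rested on single settings. Ldhd, whose tags cannot be told apart from those of Znrf1, Slc2a5, Sord and Pygl each passed in all 20 alternatives. Gys2 passed in 19. Hk1 passed in 14, Pkm in 13, Fbp1 in 10, Gapdh in 8, Gbe1 in 6 and Pgk1 in 5. On the 4 other scalings 4 genes of the set were lower instead of 8, since Fbp1, Gapdh, Pgk1 and Gbe1 did not pass, and 3 or 4 were higher. Over all genes the share of calls that were higher in KO was 42.9% as deposited and 50.7% to 64.7% with the other scalings. Scaling to the total without Rn45s moved the median of all genes to 0.105.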

How the data were processed

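RNA of 9 kidney libraries was read with the Lexogen QuantSeq 3′ kit, per the labels' protocols. The authors deposited log2 values, log2(x + 1) with 3 decimals, for 23282 rows. Bowtie2, bedtools and build mm10 are named in the submitters' processing notes, without versions. How the values were normalized, the annotation, the strand setting and the treatment of shared reads: not given in the sources used here. The values show x to be an adjusted read count, so no count model was used and no counting interval is given.

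Genes with x of at least 10 in at least 4 libraries, 13481 rows, entered a linear model in limma (version 3.58.1, R version 4.3.3), with a variance trend and genotype as the single term, after a test on simulated data. P-values were adjusted by Benjamini-Hochberg over all tested genes, with a threshold of 0.05, two-sided. Differences within libraries and library measures were tested with an exact permutation test. The alternatives were another added constant, other filters and scalings, an Rn45s covariate, a constant variance prior, libraries left out and a replicate block.

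All members were named, with values by library for those called. Of the other pathway genes those called at a log2 fold change of at least 0.5 were named. The members and lists were chosen with earlier results of these data known. Positions are from GENCODE M21 (GRCm38, the assembly of mm10) and promoters from RefSeq (GRCm38.p6).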

Additional observations from a re-analysis of the deposited data

Results flagged for a closer look

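In 100 groups of 4 or 5 values (35 genes, 12 pairs and 3 library measures in each genotype), 7 had a library far from its nearest neighbour by Dixon's ratio, and chance gives about 1 in 20. KO 5 was the high library in 4 of them. It was at 10.31 in Pcx, with the next KO library at 9.83, at 9.585 in Hk1, next 9.23, at 9.32 in Pfkl, next 8.85, and at 9.43 in Pygl, next 8.82. KO 2 was low in Sord, at 13.44 with the next at 13.64. WT 2 was low in Pgk1, at 10.35 with the next at 10.51, and high in globin, at 1.455% of adjusted reads with the next at 0.690%. The cause was not tested. The fold changes without KO 5 were -0.50 for Pcx, 0.40 for Hk1, 0.19 for Pfkl and 0.74 for Pygl.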

How the results depend on the processing

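Over 35 genes and 20 alternatives, 593 of 699 combinations kept the direction and the side of the threshold, 65 lost a call, 15 gained one and 26 changed sign, all in genes that passed in neither case. As deposited, 3 members were higher and 8 lower in KO, among 1937 genes called. With scaling by quantiles, upper quartile, library total or the total without Rn45s, 4 members were lower. With the Rn45s share as a covariate, 6 were higher (Slc2a1, Pck1, G6pc, Hk1, Pkm and Pygl) and 3 lower (Slc2a5, Sord and Ldhd), among 1157 genes, and with a constant variance prior 1 was higher and 4 lower. Without WT 2 and KO 4 together, 1 was higher. Leaving out each library in turn gave 1 to 3 higher, 4 to 10 lower and 1426 to 2277 genes called. The cause was not tested.

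Sign changes among members that did not pass were small. Gpi1 was at 0.0699 with quantile normalization, 0.0380 with upper-quartile scaling, 0.0211 with library-total scaling and 0.0679 without Rn45s in the total. Pfkfb3 was at 0.0704, 0.0536 and 0.09996 under the last 3 of these and 0.0696 with the Rn45s covariate, where Slc5a1 was at 0.0242. Pfkfb2 was at -0.0027 with quantile normalization. Without WT 2 and KO 4 together, Pfkm was at -0.0752, Pfkp at -0.0254 and Pfkfb2 at -0.103. Leaving out each library gave -0.029 to 0.14 for Slc5a2, -0.14 to 0.14 for Pfkfb2, -0.19 to 0.18 for Pfkfb3, -0.0828 to 0.0125 for Gpi1, -0.0507 to 0.16 for Gys1, -0.0581 to 0.18 for Pfkm and -0.0309 to 0.28 for Pfkp. It gave -0.27 to 0.18 for Pfkfb3 minus Pfkfb2 and -0.0019 to 0.19 for Pklr minus Pkm.

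The titles number the libraries in both genotypes, and deviations of same-numbered libraries correlated at 0.151, -0.0051, 0.0057 and 0.0426. For KO 1 the best match was WT 1, and for KO 2, KO 3 and KO 4 it was a WT library with another number. These values cannot tell whether the numbers pair the libraries. With the replicate number as a block, over replicates 1 to 4, 2 members were higher and 8 lower among 1739 genes called. Hk1 (adjusted p = 0.0711) and Pgk1 (0.0761) no longer passed in limma, and Pcx (0.0191) did. The descriptions number the WT libraries 1, 3, 4 and 5 instead, and libraries with the same number there correlated at 0.156, 0.0917, -0.0662 and 0.0074. A block by those numbers, without KO 2 and chosen after seeing the data, gave 3 members higher and 5 lower among 1584 genes. Gapdh, Pgk1 and Gbe1 no longer passed, and the uncalled Gpi1 was at 0.0125, Pfkfb2 at -0.0338 and Pfkfb3 at 0.0505. Raw depth is unknown, and Hk2 and Gys2 lie where few reads set the value.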
